A study of Bos taurus and Ovis aries and Capra hircus with 18 samples.

Results

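The brains of 2 closely related ruminants, sheep (Ovis aries) and goat (Capra hircus), were compared gene by gene from poly(A)-selected RNA of adult frozen tissue. The members are 6 libraries, sheep brain A, B and C and goat brain A, B and C, of 18 libraries in the series, which also holds cattle brain and muscle of the 3 species. Both groups are labelled as adults, with species as the only labelled difference and no treatment or genotype named, and each species was counted on its own gene models. The sources used here do not give the brain region, the sex or the age in years. Whether A, B and C are different animals is not stated either, so the p-values describe the spread among these 6 libraries, which may be technical.

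The mammalian brain is a mixture of neurons, which signal through glutamate and GABA receptors and sodium, calcium and potassium channels, and of glia. Astrocytes clear glutamate and supply metabolites, oligodendrocytes wrap axons in myelin, microglia are the resident macrophages, and the choroid plexus secretes cerebrospinal fluid. Differences between 2 brain samples can therefore follow the mixture of cells as well as the level per cell. In bulk tissue, fewer cells of a type and less RNA per cell cannot be told apart.

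The sheep brain libraries held 25162316 to 30432512 counts and the goat brain libraries 20730803 to 29496749. Each species was counted on its own gene models, 26478 in sheep and 27271 in goat, and these carry identifiers with no names. Sheep and goat genes were therefore paired by the lengths of their exons and by gene order, and 16442 pairs stood after 425 pairs that led to different cattle genes were left out. Of these, 13204 had enough counts in brain to be tested. Levels are given as CPM per kb, read counts scaled to library size and divided by the exon length of each species' own gene model in kilobases, and differences as log2 of sheep over goat, so that a positive value is higher in sheep. Standard errors follow ± beside log2 values and standard deviations (SD, n = 3) beside levels. A gene was called where the adjusted p of edgeR's quasi-likelihood test (Benjamini-Hochberg over all genes tested) was below 0.05 and the difference at least 2-fold. With 3 libraries against 3, an exact permutation test of a single gene could not go below 0.1. As a check of the tissue label, the summed neuron markers stood at 5114 to 6963 CPM per kb in sheep and 3862 to 5868 CPM per kb in goat. The summed skeletal muscle markers stood at 89.9 to 203 CPM per kb in sheep and 49.97 to 83.9 CPM per kb in goat. PYGM led the muscle sum, and without it the species overlapped. The rest had 15.4, 12.1 and 49.1 in sheep A, B and C and 11.2, 40.7 and 23.8 in goat A, B and C.

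Sheep brain C stood apart from the other libraries. The Spearman correlation of gene levels was 0.987 between sheep A and B, and 0.815 and 0.819 between C and each of them. Within goat it was 0.961 to 0.972. Sheep A and B correlated with the goat libraries at 0.858 to 0.864 and sheep C at 0.676 to 0.718. Among 9088 genes of at least 8 CPM per kb, 2593 were over 2-fold higher and 2418 over 2-fold lower in sheep C than in the mean of A and B, against 54 and 58 between A and B themselves. The genes lowest in C relative to A and B included GABRB2, a subunit of the main fast inhibitory receptor of the brain. GABRB2 had 48.3, 40.6 and 0.651 CPM per kb in sheep A, B and C, against 33.5 to 42.3 in goat. SLC38A2, a neutral amino acid carrier, had 40.6, 42.1 and 0.919 CPM per kb in sheep A, B and C, and SLC24A2, a sodium, calcium and potassium exchanger of neurons, had 31.7, 30.0 and 0.272. At the other end, GNG8, a G protein gamma subunit, had 3.12 and 5.19 CPM per kb in sheep A and B and 124 in sheep C. GGT5, a glutathione and leukotriene hydrolase, had 14.6, 9.62 and 149 CPM per kb in the same libraries. For this reason the main counts and list medians are given with and without sheep C.

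**Figure D1:**
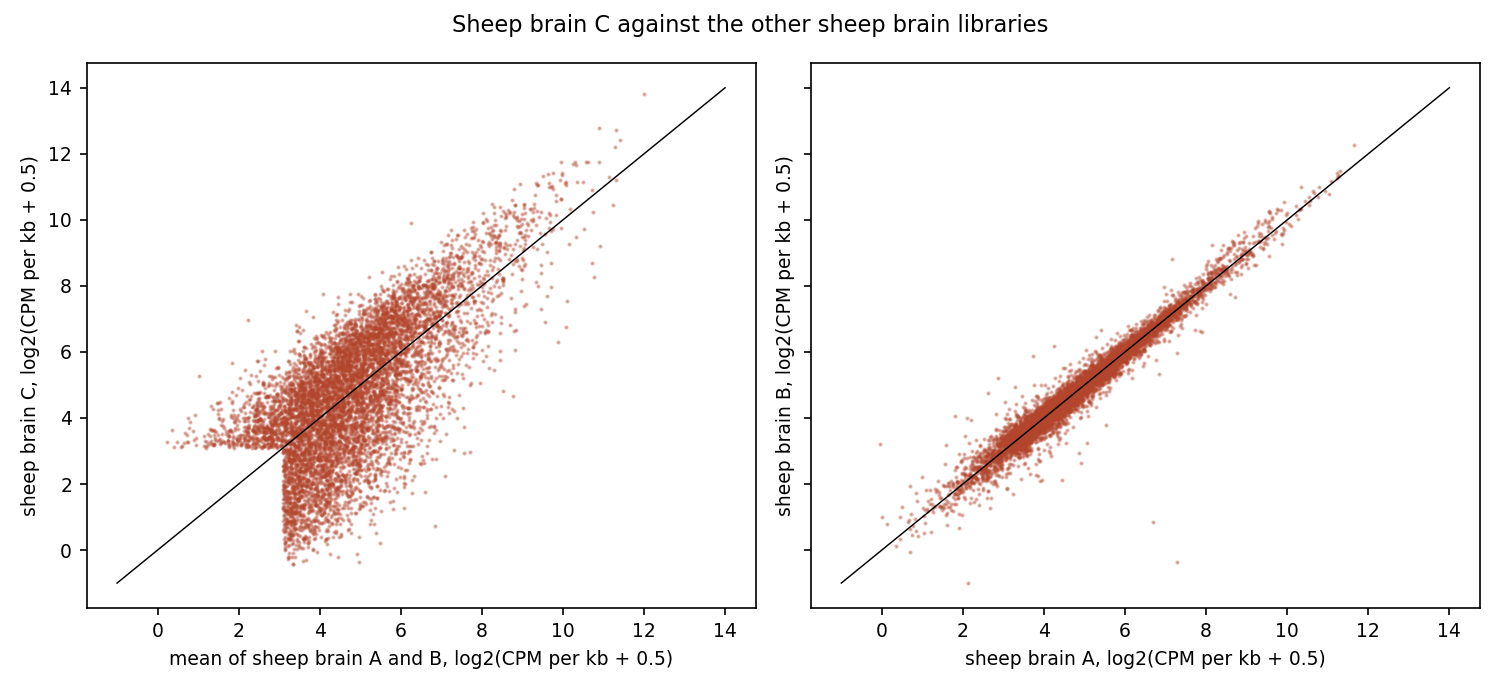
Each point is 1 of 7877 named genes of at least 8 CPM per kb in sheep C or in the mean of sheep A and B, on log2(CPM per kb + 0.5) axes, with sheep C against the mean of A and B on the left and sheep B against A on the right; the line marks equal levels. The cloud is wide on the left (Spearman correlation 0.815 and 0.819 with A and B over all genes tested) and narrow on the right (0.987), and the empty corner on the left is the limit of 8 CPM per kb.

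Between the species, 865 genes were higher in sheep brain (6.55% of the genes tested) and 386 were higher in goat brain (2.92%). The absolute log2 difference had a median of 0.59 with quartiles of 0.28 and 1.1, and the signed median over all genes was 0.03. Without sheep C, 1388 genes (10.4%) were higher in sheep and 950 (7.1%) higher in goat, of 13383 tested. All 865 and 386 calls of the full comparison were also made, in the same direction, without sheep C. The counts fell when a goat library was left out, to 239, 249 and 256 higher in sheep and 189, 178 and 183 higher in goat without goat A, B and C. Without sheep A they were 739 and 261, and without sheep B 736 and 252. Of the 13204 genes, 3079 had an unadjusted p below 0.05.

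Much of this count went with unequal gene models. The exon length given for a gene can differ between the species. Where the sheep model was under 0.25 times as long as the goat model, 545 genes had a median log2 difference of 1.14 and 47.2% were called. The median then fell with each step of the length ratio, to -0.75 among 408 genes with a sheep model 2 to 4 times as long, of which 26.5% were called. Among the 122 genes with a sheep model over 4 times as long it was 2.62, with 58.2% called. Without any correction for length, 476 genes were called higher in sheep and 474 higher in goat. More weight is therefore given to pairs whose lengths differ by at most 1.2 times, called of matched length below, and 6204 of the genes tested were of this kind. In these the median difference was -0.04. Of them 162 (2.61%) were higher in sheep brain and 96 (1.55%) higher in goat brain, and without sheep C the counts were 263 (4.19%) and 280 (4.46%) of 6277. Without goat A, B and C in turn they were 52, 49 and 51 higher in sheep and 39, 38 and 38 higher in goat. They were 145 and 131 higher in sheep, and 63 and 59 higher in goat, without sheep A and B.

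**Figure D2:**
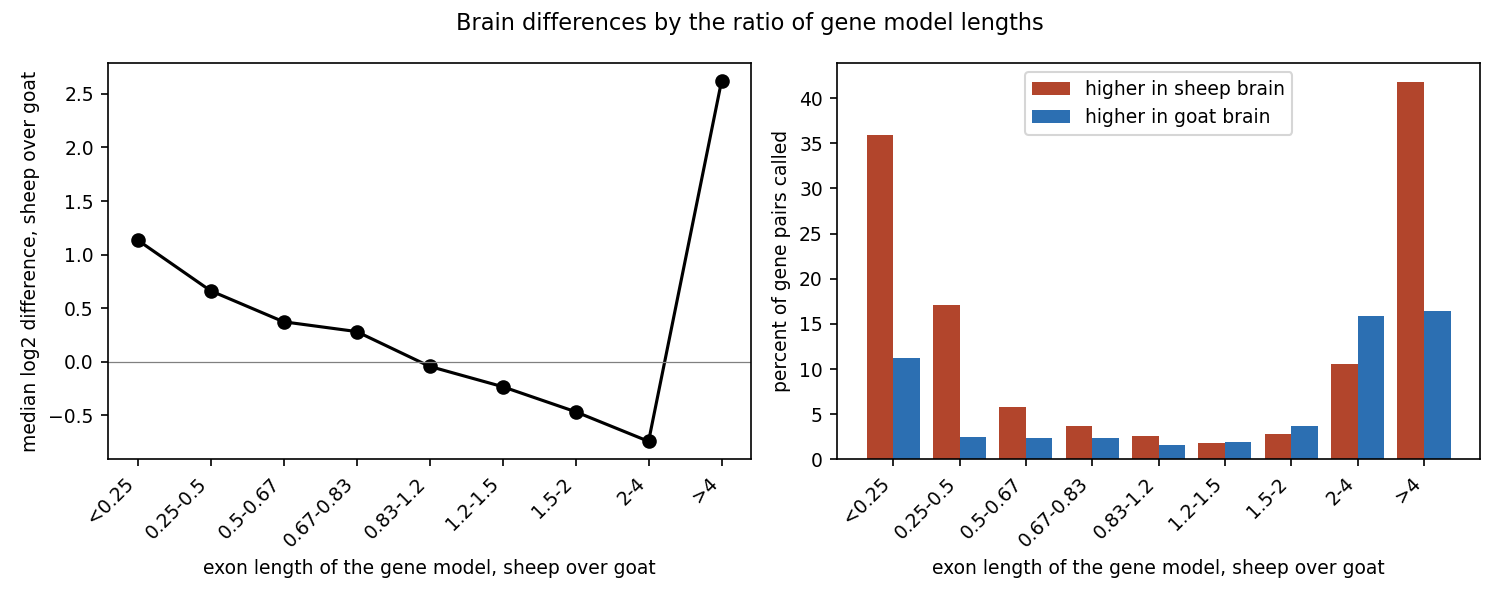
Gene pairs are grouped by the exon length of the sheep model over that of the goat model. The left panel gives the median log2 difference (sheep over goat) of each group, which runs from 1.14 to -0.75 and is 2.62 in the last group; the right panel gives the percent of pairs called higher in sheep brain (red) and in goat brain (blue), with 162 and 96 of 6204 pairs called where the lengths differ by at most 1.2 times.

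A second feature of the annotation met by some of the large differences was exons that lie under exons of another gene. Of the 61 named genes of matched length that were higher in sheep at 8 CPM per kb or more, with separate groups and a call also made without sheep C, 47 had under 10% of their exon length overlapped in both species, and of the 21 higher in goat 19 had. The sources used here do not say whether reads were counted by strand or how reads over 2 genes were handled. Among 28 genes whose goat exons were overlapped over at least 50% of their length and whose sheep exons were overlapped under 10%, the median log2 difference was 5.51, with 21 called higher in sheep and 0 in goat. Among 7 genes with the reverse, it was -2.84, with 0 called higher in sheep and 5 in goat. TUBA4A, an alpha-tubulin that brain and muscle use in quantity, had 349, 339 and 740 CPM per kb in sheep brain A, B and C, against 0, 0.170 and 0.0309 in goat brain, where 99.8% of its exon length was overlapped. Its level in cattle brain was 432 CPM per kb. FBXL15, a ubiquitin ligase adaptor, PIP4P1, a phosphoinositide phosphatase, TMEM160, a mitochondrial membrane protein, AP4M1, a subunit of a sorting adaptor, and SMPD2, a neutral sphingomyelinase, were each overlapped over 100% of their exons in goat and had 0 counts in all 3 goat brains. FBXL15 had 45.1, 52.5 and 116 CPM per kb and PIP4P1 had 56.3, 56.2 and 71.1 in sheep brain. TRMT2A, a tRNA methyltransferase overlapped over 90.2% in goat, had 24.2, 25.2 and 97.1 CPM per kb in sheep and 1.34, 0.959 and 0.406 in goat. GDPD3, overlapped over 85.6% in goat, had 4.10, 2.51 and 25.4 CPM per kb in sheep and 0.223, 0.486 and 0.133 in goat. In the other direction PET117, an assembly factor of cytochrome oxidase, had 15.5, 20.5 and 8.07 CPM per kb in sheep, where 61.0% of its exon length was overlapped, and 98.2, 107 and 111 in goat. TCTN1, a protein of the ciliary base overlapped over 52.1% in sheep, had 2.13, 2.52 and 1.1 CPM per kb in sheep and 18.5, 26.4 and 15.6 in goat. Whether the overlap set these differences was not tested.

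With overlapped genes left aside, 131 of 6032 genes (2.17%) were higher in sheep brain and 88 (1.46%) higher in goat brain, and without sheep C 219 and 250 of the same genes. A further share of pairs had only 1 species linked to a cattle gene. ZNF275, a zinc finger protein, had 21.6, 20.2 and 20.3 CPM per kb in sheep and 0 counts in goat, and ATP6V0E1, a subunit of the vacuolar proton pump, 27.8, 27.8 and 46.3 CPM per kb in sheep and 0 counts in goat. Both are named through the sheep gene only. TCEAL4, an X-linked transcription elongation factor-like gene, had 0.145, 0.416 and 0.893 CPM per kb in sheep and 203, 194 and 195 in goat, and is named through the goat gene only. Whether the partner is the same gene was not tested for these 3. The strictest set kept pairs of matched length and little overlap whose sheep and goat genes both led to the same cattle gene. It held 5369 genes, of which 108 (2.01%) were higher in sheep brain and 57 (1.06%) higher in goat brain. Without sheep C, 184 of the same genes were higher in sheep and 199 higher in goat, so that the excess of calls on the sheep side was not found there. Of these, 44 and 18 had a name, a mean of at least 8 CPM per kb in the higher species and no overlap between the 3 sheep and the 3 goat libraries. The genes described next come from these 62, a selection made after the values were seen.

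Among the genes higher in sheep brain, RAD21L1, a cohesin subunit known from meiosis, had 27.7, 28.5 and 12.6 CPM per kb in sheep brain A, B and C and 0 counts in all 3 goat brains. Against a floor of 3 counts over the goat group it was at least 1532-fold higher in sheep, and its level in cattle brain was 0.654 CPM per kb. The sheep gene lies on chromosome 13 at 62138726 to 62226643 and the goat gene on chromosome 13 at 59164356 to 59200933, in the coordinates of the count files, whose builds the sources used here do not name. KCNJ13, an inward rectifier potassium channel of the choroid plexus and the retinal pigment epithelium, had 8.43, 13.2 and 11.7 CPM per kb in sheep and 0.472, 0.989 and 1.23 in goat. The log2 difference was 3.63 ± 0.52 (adjusted p = 0.00532 by edgeR). ERFE, the hormone erythroferrone that lowers hepcidin, had 8.79, 9.10 and 16.9 CPM per kb in sheep and 1.08, 1.23 and 1.24 in goat, a log2 difference of 3.29 ± 0.47 (adjusted p = 0.00516). ABCB4, a phospholipid translocator best known from bile canaliculi, had 15.7, 10.9 and 4.51 CPM per kb in sheep and 0.0788, 0.215 and 0.0671 in goat. Other goat genes share exon lengths with ABCB4, so its reads are uncertain. These 4 genes were the only ones of the 44 that kept their call with each of the 6 libraries left out in turn. KCNJ13, ERFE and ABCB4 were not first-pass pairs, but were placed by gene order and at least 1 shared exon length.

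TERT, the catalytic subunit of telomerase, had 11.1, 12.5 and 45.1 CPM per kb in sheep and 0.266, 0.310 and 1.17 in goat. Its log2 difference was 5.29 ± 0.90 (adjusted p = 0.0114 by edgeR), and 4.29 without sheep C (adjusted p = 0.00136). HAS3, a hyaluronan synthase, had 5.36, 5.24 and 15.2 CPM per kb in sheep against 0.722, 0.632 and 0.768 in goat, and P2RX2, an ATP-gated channel, had 3.77, 6.36 and 23.3 against 0.587, 0.160 and 0.991. In all 3 genes sheep C was the highest library. That sheep A and B lay above every goat library was a condition of the selection. COL1A1, the main fibrillar collagen chain, had 29.5, 5.67 and 22.4 CPM per kb in sheep and 1.53, 1.82 and 2.64 in goat. SERPINF1, a secreted serpin, had 21.3, 3.89 and 24.8 in sheep and 0.613, 1.58 and 1.93 in goat, and ELN, elastin, 11.1, 5.71 and 10.7 in sheep and 1.59, 2.34 and 2.53 in goat. Sheep B was the lowest sheep library for all 3.

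PHGDH, the first enzyme of serine synthesis and in brain mainly a glial gene, had 168, 227 and 363 CPM per kb in sheep and 75.9, 70.2 and 103 in goat. Its log2 difference was 1.6 ± 0.39 (adjusted p = 0.0408 by edgeR). SLC7A11, the cystine and glutamate exchanger, had 9.93, 11.9 and 7.63 CPM per kb in sheep and 2.23, 0.965 and 0.995 in goat. ALDH2, the mitochondrial aldehyde dehydrogenase, averaged 253 ± 15.1 CPM per kb in sheep and 113 ± 4.16 CPM per kb in goat (SD, n = 3 each), a log2 difference of 1.17 ± 0.28 (adjusted p = 0.0393). NEIL2, a DNA repair glycosylase, had 36.7, 26.0 and 24.8 in sheep and 6.95, 3.98 and 4.63 in goat. RPSA, a protein of the small ribosomal subunit, had 739, 951 and 2062 CPM per kb in sheep and 233, 95.9 and 201 in goat, and its log2 difference was 2.82, and 2.23 without sheep C. The list of ribosomal protein genes, which does not hold RPSA, had 18 tested, with a median of 0.17 and 0 called. Without sheep C its median was -0.35, with 1 higher in sheep and 3 higher in goat. SMG1, a kinase of nonsense-mediated decay, had 39.5, 41.8 and 7.59 CPM per kb in sheep and 5.59, 3.43 and 5.19 in goat, and there sheep C was the lowest sheep library.

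Genes higher in goat brain were led by NME7, a nucleoside diphosphate kinase of the gamma-tubulin ring complex. It had 4.50, 4.80 and 5.99 CPM per kb in sheep and 283, 679 and 281 in goat, with a log2 difference of -6.34 ± 0.54 (adjusted p = 0.000700 by edgeR), and 98.5 CPM per kb in cattle. The sheep gene lies on chromosome 12 at 40035374 to 40329755 and the goat gene on chromosome 16 at 35317211 to 35559863 in the count files. PSMC3IP, a partner of the recombinases of meiosis, had 1.04, 1.15 and 2.45 CPM per kb in sheep and 29.4, 49.0 and 21.6 in goat, a log2 difference of -4.43 ± 0.57 (adjusted p = 0.00373). ACOX2, a peroxisomal oxidase of branched fatty acids and bile acid precursors, had 0.808, 1.05 and 1.2 in sheep and 12.4, 12.2 and 6.55 in goat, a log2 difference of -3.34 ± 0.44 (adjusted p = 0.00366). RXFP1, the relaxin receptor, had 1.46, 2.38 and 1.58 in sheep and 8.89, 10.2 and 30.5 in goat. NME7, PSMC3IP, ACOX2 and RXFP1 were the only ones of the 18 that kept their call with each of the 6 libraries left out in turn. EPYC, a small matrix proteoglycan, was called except where 1 library was left out, and had 0, 0.296 and 0.0467 CPM per kb in sheep and 7.23, 5.86 and 15.8 in goat.

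DIS3L, a ribonuclease of the cytoplasmic exosome, averaged 5.82 ± 1.71 CPM per kb in sheep and 21.0 ± 0.294 CPM per kb in goat (SD, n = 3 each), and SMU1, a splicing factor, 18.4 ± 2.65 and 53.4 ± 4.69. TUBB, a beta-tubulin with near copies in the genome, averaged 92.7 ± 15 CPM per kb in sheep and 287 ± 62.8 in goat. Separate groups were a condition of their selection. Transferrin (TF), the iron carrier that oligodendrocytes and choroid plexus make in the brain, had 102, 99.6 and 58.0 CPM per kb in sheep and 642, 257 and 230 in goat. Its log2 difference was -2.12 ± 0.50 (adjusted p = 0.0375 by edgeR), and -1.53 without goat A (adjusted p = 0.125), and it kept its call in 1 of the 6 leave-outs, that of sheep C. Over the 62 genes, the call ended for 29, 30 and 0 of them without sheep A, B and C, and for 50, 53 and 53 without goat A, B and C, with the sign of the difference kept each time.

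**Figure D3:**
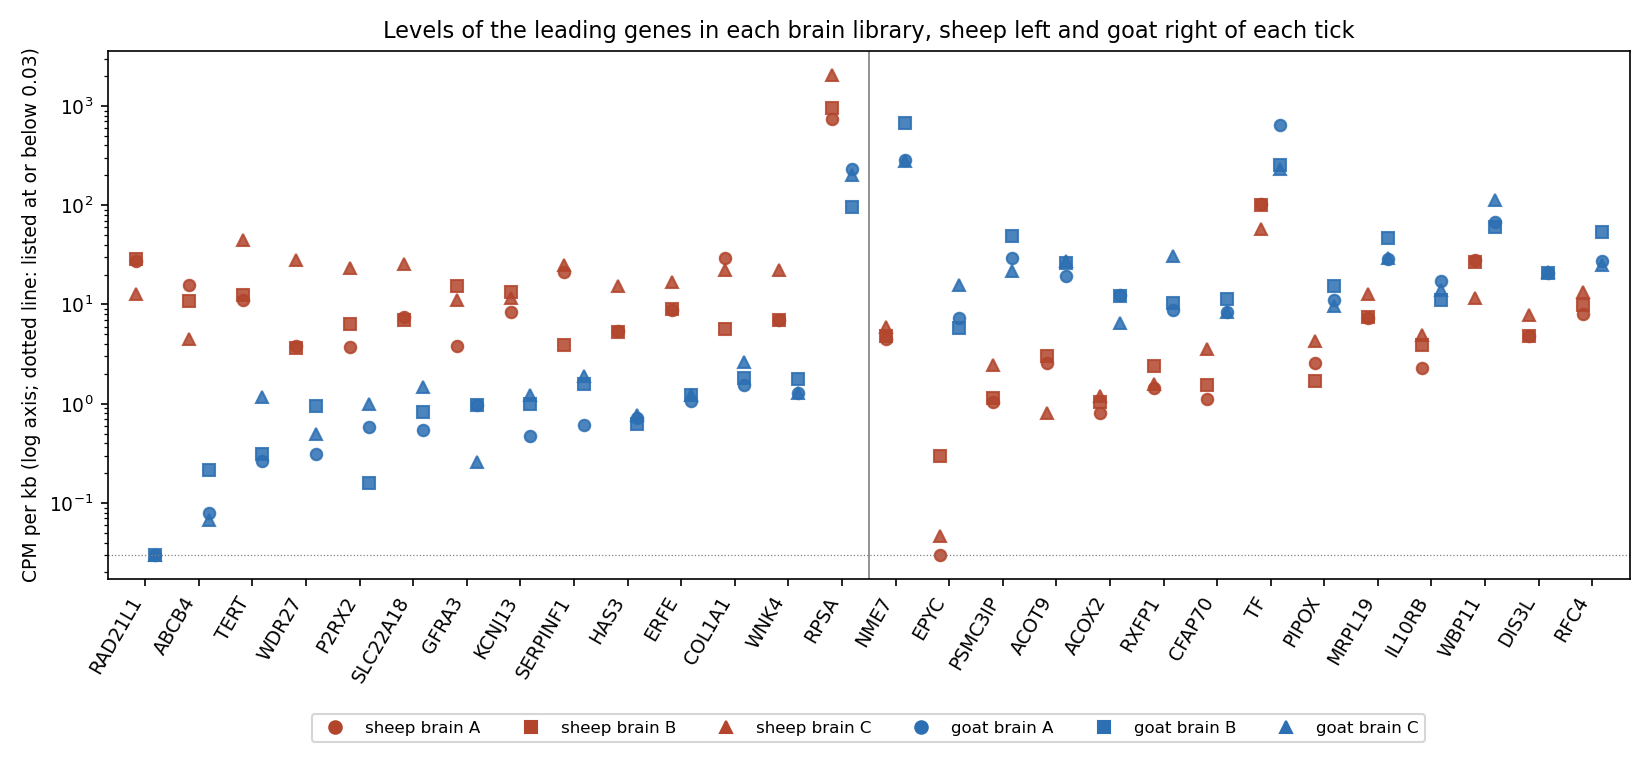
Levels in CPM per kb (log axis) of the 14 genes with the largest difference in each direction among pairs of matched length, little exon overlap and a shared cattle gene; each symbol is a library, sheep in red at the left of each tick and goat in blue at the right. Separate sheep and goat symbols were a condition of the selection, and symbols on the dotted line are at 0, RAD21L1 in all 3 goat brains and EPYC in sheep A.

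Cattle brain gives an outside level for these genes, from libraries of another species counted on its own models. Of the 108 genes of the strictest set higher in sheep, the cattle mean was nearer to sheep for 26 and nearer to goat for 82 on the log2 scale. Of the 57 higher in goat it was nearer to sheep for 34 and to goat for 23. The same split over all genes of that set is not given here, and the cattle models were not matched in length. These counts therefore cannot show in which species a level changed. For DIS3L the cattle level was 21.0 CPM per kb, beside goat, and for PHGDH 151 CPM per kb, between both.

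Skeletal muscle of the same species showed which differences were shared by both tissues. In muscle, 1594 of 12070 genes tested (13.2%) were higher in sheep and 1865 (15.5%) higher in goat. Of the 258 genes of matched length called in brain, 181 were tested in muscle and 152 had the same sign there. Of 112 that were higher in sheep brain, 67 were also called higher in sheep muscle and 6 lower. These include genes with overlapped exons, and of the 87 with under 10% overlap 45 were also called higher and 6 lower. Of 69 that were higher in goat brain, 51 were also called higher in goat muscle and 3 lower. With under 10% overlap, 44 of 62 were also called higher in goat muscle and 3 lower. NME7 and PSMC3IP, at -6.34 and -4.43 in brain, stood at -5.71 and -4.70 in muscle. TCEAL4 stood at -8.66 in brain and -7.99 in muscle.

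The difference between tissues was tested as an interaction, in which a feature of the gene models that acts alike in both tissues cancels. Over 13655 genes, the sheep over goat difference was larger in brain than in muscle for 303 (2.22%) and smaller for 186 (1.36%), and without sheep C for 498 and 425. Among genes of matched length called in brain, 24 of those higher in sheep and 14 of those higher in goat were called. Spondin 2 (SPON2), a secreted matrix protein, had 40.1, 31.6 and 78.6 CPM per kb in sheep brain and 7.93, 7.13 and 13.1 in goat brain. In muscle its means were 2.14 CPM per kb in sheep and 8.30 in goat. The brain difference exceeded the muscle difference by 4.20 ± 0.54 on the log2 scale (adjusted p = 0.00129 by edgeR). APOBEC2, a muscle protein of the cytidine deaminase family, had 7.05, 7.03 and 6.56 CPM per kb in sheep brain and 0.678, 0.252 and 0.245 in goat brain, against 593 and 705 in sheep and goat muscle. Its interaction was 4.18 ± 0.46 (adjusted p = 0.000467), and its brain call held with each library left out. GPX8, a peroxidase of the endoplasmic reticulum, had 8.64, 9.81 and 18.4 in sheep brain and 1.13, 2.48 and 2.05 in goat brain, and was lower in sheep muscle (10.9) than in goat muscle (22.2). CFAP251, a protein of motile cilia, had 9.41, 17.0 and 17.4 in sheep brain and 3.67, 4.04 and 4.78 in goat brain. Its muscle means were low, 0.125 in sheep and 0.756 in goat, a log2 difference of -2.58 beside 1.81 in brain. C1QTNF3, a secreted adipokine of the C1q family, had 6.96, 4.87 and 1.08 in sheep brain and 0.312, 0.0608 and 0.0443 in goat brain. In muscle its means were 8.69 in sheep and 12.1 in goat. GFRA3, the receptor of the neurotrophic factor artemin, had 3.78, 15.5 and 11 in sheep brain and 0.977, 0.973 and 0.261 in goat brain. Its muscle means were low, 0.675 in sheep and 0.813 in goat.

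In the opposite direction FAM20A, a pseudokinase of the secretory pathway, had 3.60, 4.58 and 4.11 CPM per kb in sheep brain and 11.1, 11.7 and 13.4 in goat brain. In muscle it was higher in sheep, with means of 3.22 CPM per kb in sheep and 0.863 in goat. Its interaction was -3.6 ± 0.44 (adjusted p = 0.000836 by edgeR). CD83, a surface protein of activated immune cells, had 9.66, 10.2 and 10.1 in sheep brain and 24.8, 23.7 and 40.5 in goat brain. In muscle its means were 1.38 in sheep and 1.06 in goat, and its interaction was -2.09 ± 0.50 (adjusted p = 0.0395). ACOX2 was called in brain, while its muscle difference of -0.89 had an adjusted p of 0.0771, and its interaction was -2.61 ± 0.54 (adjusted p = 0.0228).

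**Figure D4:**
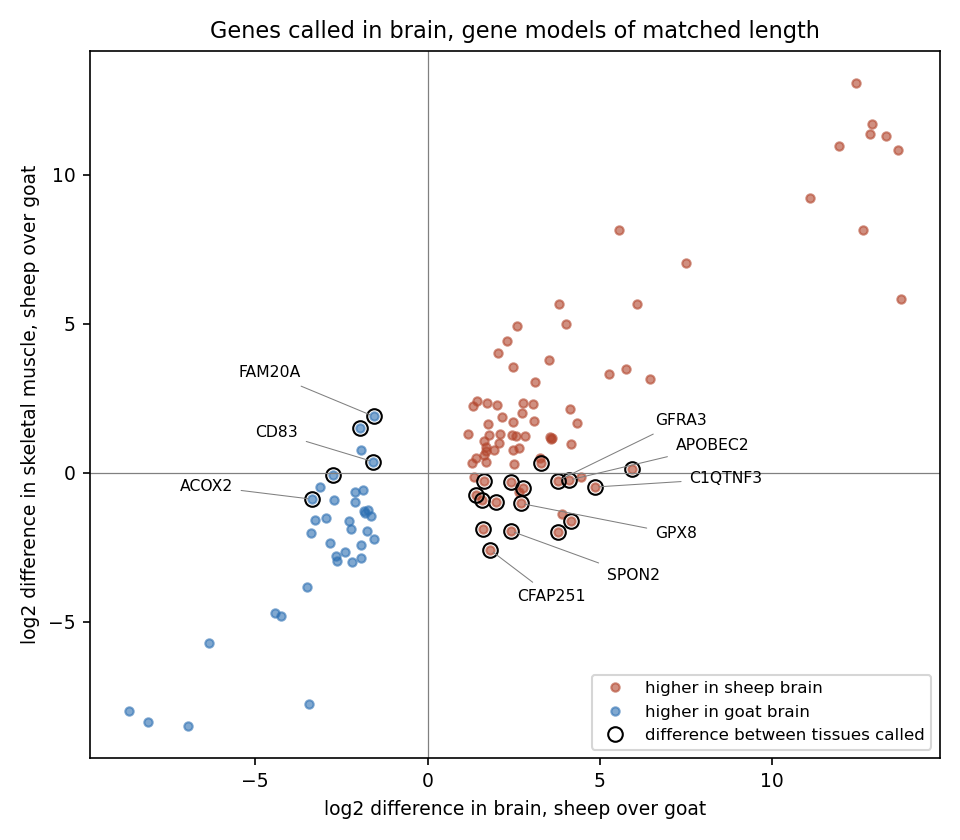
Each point is 1 of 117 named genes of matched length called in brain and tested in muscle, with the log2 difference (sheep over goat) in brain on the horizontal axis and in skeletal muscle on the vertical axis; red is higher in sheep brain, blue higher in goat brain. Black rings mark the 22 genes whose brain and muscle differences were called different, and most other points lie in the quadrants where both tissues share a sign; for genes at 0 counts in 1 species, such as those at the top right, the fitted value sets no bound.

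Markers and pathway genes, in 45 lists, came to 443 genes tested in brain, each counted once. Of these, 34 were higher in sheep and 12 higher in goat, 10.4% in all beside 9.47% of all genes tested. By direction, 6.55% of all genes tested were higher in sheep and 2.92% higher in goat. Without sheep C the members called were 58 and 35, beside 10.4% and 7.1% of all genes tested. The counts of each list below stand beside these shares. Most calls among the members were in genes of unequal model length. Among the 171 members of matched length, 5 were higher in sheep and 3 higher in goat (4.68%), beside 4.16% of all genes of matched length. Without sheep C they were 8 and 8, beside 4.19% and 4.46% of all genes of matched length. Where the sheep model was the shorter by over 1.2 times, 25 of 183 were higher in sheep and 5 in goat, and where it was the longer, 4 and 4 of 89. The medians of the 43 lists with at least 3 genes tested lay between -0.91 for myelin and 1.13 for the hypothalamus, beside 0.03 for all genes.

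Among neuronal genes, 0 of 12 general neuron markers were called, with a median of -0.10 that lay between -0.33 and 0.11 with 1 library left out. Of 11 markers of inhibitory neurons 0 were called, with a median of 0.35 that lay between 0.22 and 1.27, the highest without goat C. Without sheep C, 1 general marker was higher in sheep and 1 higher in goat, and 2 inhibitory markers were higher in sheep. The 10 neuropeptide and granin genes, none of matched length, had a median of 1.05 with 0 called, and 0.77 without sheep C with 2 higher in sheep. Among 16 glutamate receptor genes 0 were called and the median was -0.15, and 0.07 without sheep C, where 1 was higher in goat. GRIA2, the AMPA receptor subunit that limits calcium entry, had 74.8, 75.4 and 8.35 CPM per kb in sheep and 69.0, 69.3 and 103 in goat. Of 10 GABA receptor genes, 1 was higher in goat. GABRA5, the receptor subunit of hippocampal tonic inhibition, had 24.7, 32.4 and 15.7 in sheep and 65.1, 67.7 and 125 in goat, with a sheep model 1.46 times as long, and kept its call in 1 of the 6 leave-outs, that of sheep C. The 17 sodium and calcium channel genes had a median of -0.39 with 0 called, and -0.12 without sheep C. The 12 potassium channel genes had medians of -0.16 and 0.17, with 0 called in all 6 libraries and 1 higher in sheep without sheep C. Of 14 genes of vesicle release, RAB3A, a small GTPase of synaptic vesicles, was higher in sheep, with a sheep model 0.25 times as long. Of 10 excitatory neuron markers, EMX1, a transcription factor of the cortex, was higher in sheep with a model likewise 0.25 times as long.

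Astrocyte markers had a median of 0.89 over 10 genes, which was 1.16 without sheep C, 0.23 without sheep B and between 0.71 and 1.01 without each of the others. NDRG2, an astrocyte protein of the NDRG family, had 747, 990 and 853 CPM per kb in sheep and 226, 155 and 251 in goat (log2 2.03 ± 0.33, adjusted p = 0.00891 by edgeR). ALDH1L1, the folate enzyme used as a pan-astrocyte marker, had 57.1, 68.7 and 80.9 in sheep and 4.77, 11.6 and 14.5 in goat (log2 2.74 ± 0.47, adjusted p = 0.0121). These 2 were called, and without sheep C 5 were. Their sheep models were 0.25 and 0.29 times as long as the goat models, and without the length correction the difference of NDRG2 was 0.12. The only marker of matched length, ATP1B2, a sodium pump subunit, had 495, 524 and 295 CPM per kb in sheep and 407, 390 and 352 in goat. Its difference was 0.19 with an adjusted p of 0.767 by edgeR. GFAP, the glial filament protein, had 2390, 2458 and 1384 in sheep and 1955, 654 and 3784 in goat, and was not called. AQP4, the astrocyte water channel, had 207, 206 and 7.31 in sheep and 76.5, 39.5 and 67.7 in goat, so that sheep C lay below goat and sheep A and B above. The sheep and goat models of GFAP and of AQP4 differ in length by over 1.2 times.

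Myelin genes had a median of -0.91 over 12 genes, with 1 called. The median was -0.57 without sheep C, where 1 was higher in sheep and 1 higher in goat, and -0.26 without goat A. MBP, the basic protein of compact myelin, had 1476, 1389 and 2278 CPM per kb in sheep and 49520, 7028 and 7880 in goat. Its log2 difference was -3.65 ± 0.83 (adjusted p = 0.0335 by edgeR), and -2.16 without goat A (adjusted p = 0.0387). It kept its call without sheep C and without goat A and lost it in the other 4 leave-outs, where the adjusted p reached 0.079. The sheep model was 4.59 times as long, and without the length correction the difference was -1.35 with an adjusted p of 0.348. Goat A was the highest of the 6 libraries for every gene of the list except ASPA, an aspartoacylase. CNP, a myelin enzyme with models of about equal length, had 265, 295 and 118 in sheep and 1006, 268 and 404 in goat, a difference of -1.31 with an adjusted p of 0.224. The summed level of the list without MBP was 1980, 2182 and 589.7 CPM per kb in sheep A, B and C and 5507, 1890.4 and 1692 in goat A, B and C. Transferrin, described above, was also highest in goat A, and the part of the myelin content of that library in its difference was not tested.

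Among the other cell types, C1QA, the complement component of microglia, had 31.3, 42.5 and 61.6 CPM per kb in sheep and 12.9, 8.40 and 11.3 in goat, with a sheep model 0.34 times as long. MRC1, a macrophage mannose receptor, was low, at 2.91, 2.80 and 3.64 in sheep and 0.674, 0.495 and 0.827 in goat, and its difference turned to -1.03 without the length correction. CSF1R, the growth factor receptor of microglia with models of matched length, had 82.7, 95.7 and 60.3 in sheep and 112, 38.2 and 92.7 in goat. It was not called. The choroid plexus list of 8 genes had a median of 0.19, and 0.10 without sheep C. All sheep libraries lay above all goat libraries for 3 of the 8 and below them for 2. It had 2 members called higher in sheep, KCNJ13 and TTR, both of matched length, and 0 called higher in goat. TTR, named through the sheep gene only and the thyroid hormone carrier that the choroid plexus secretes, had 102, 1.30 and 2.95 CPM per kb in sheep and 0, 0.160 and 0 in goat. Sheep A held most of the sheep level, and without it the log2 difference was 5.33 (adjusted p = 0.0335 by edgeR). Its call ended without any one of the goat libraries. Other choroid plexus genes showed no such excess in sheep A, and CA4, a membrane carbonic anhydrase, had 29.1, 37.0 and 154 in sheep and 19.9, 25.7 and 21.8 in goat. Of 9 fibroblast and meninges markers COL1A1 was called, and without sheep C 3 were higher in sheep and 1 higher in goat. PTGDS, the prostaglandin D synthase of the meninges, had 3214, 4955 and 14491 in sheep and 2083, 1997 and 1365 in goat. It was not called with all 6 libraries, and its models differ in length by over 1.2 times. Of 10 genes of motile cilia, DNAI1, a dynein intermediate chain, was higher in goat, with 0.495, 0.471 and 0.941 in sheep, 38.2, 23.8 and 36.5 in goat and 0.752 in cattle. Its sheep model was 0.46 times as long. RSPH4A, of the radial spokes, was also higher in goat but under 1 CPM per kb in every library.

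**Figure D5:**
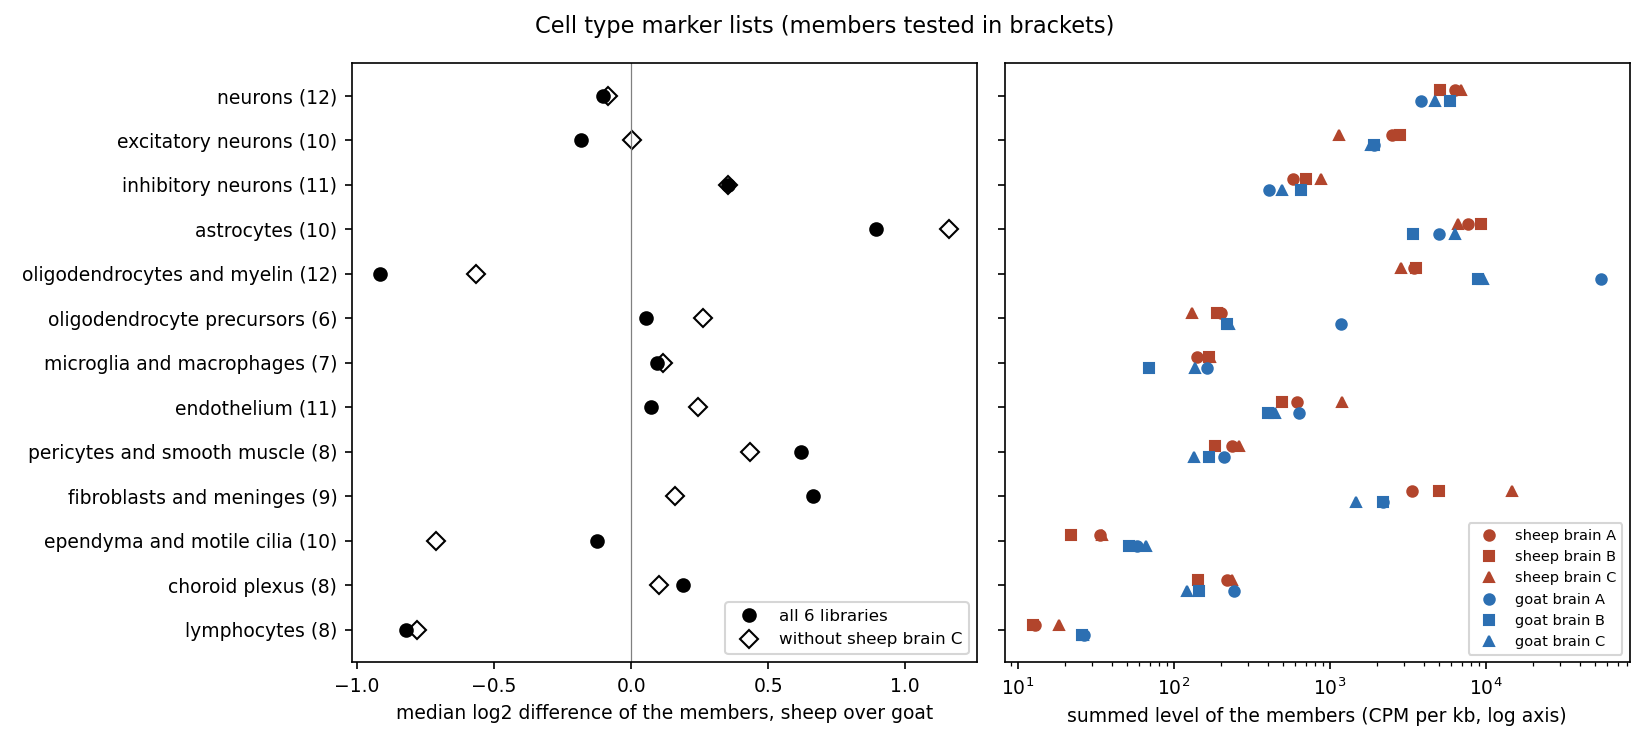
The left panel gives the median log2 difference (sheep over goat) of each cell type list with at least 3 genes tested, with all 6 libraries (filled circles) and without sheep brain C (open diamonds); the right panel gives the summed level of each list in CPM per kb (log axis) in each library, sheep in red above goat in blue. Goat brain A stands at 55026 for the myelin list, against 8919 and 9572 in goat B and C and 2868 to 3572 in sheep.

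The lists for brain regions held 55 genes tested, of which 6 were higher in sheep and 1 higher in goat (12.7%, beside 9.47% of all genes tested), and 8 and 3 without sheep C. Of the 18 of matched length 2 were higher in sheep and 1 higher in goat. Of 4 hypothalamus genes tested, HCRT, the precursor of the arousal peptides orexin, had 4.61, 1.98 and 6.15 CPM per kb in sheep and 0, 0.147 and 0.215 in goat (log2 5.0 ± 0.91, adjusted p = 0.0146 by edgeR), with models of equal length. Outside the region lists, LHB, the beta chain of the pituitary luteinizing hormone, had 0, 0.0679 and 0.514 in sheep and 6.08, 8.38 and 7.43 in goat (log2 -5.22 ± 0.97, adjusted p = 0.0158 by edgeR). LHB was the only gene called of 3 tested in the pituitary and pineal list, whose median was 0.27, and -0.75 without sheep C. TH, the rate-limiting enzyme of dopamine synthesis, had 0.725, 0.864 and 4.88 in sheep and 0.1, 0.0682 and 0.249 in goat. CALB1, a calcium buffer of Purkinje cells and hippocampal neurons, had 0.422, 0.545 and 0.688 in sheep and 1.80, 2.45 and 2.27 in goat. All 4 were low and had models of matched length. Their calls ended when any one of the goat libraries was left out, and that of CALB1 also without sheep A or B. Of 14 hindbrain genes 7 had a named pair of sheep and goat genes, and 1 of these reached the counts needed for a test.

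Genes tied to neurodegeneration included 3 of 11 that were higher in sheep, each with a sheep model 0.27 to 0.41 times as long, and 4 were without sheep C. Over all genes tested, 6.55% were higher in sheep, and 10.4% without sheep C. APOE, the lipid carrier of astrocytes, had 2471, 2591 and 6821 CPM per kb in sheep and 775, 552 and 815 in goat (log2 2.47 ± 0.49, adjusted p = 0.0201 by edgeR), and a difference of 1.80 without sheep C and, without the length correction, of 1.16 with an adjusted p of 0.214. CLU, the chaperone clusterin, had 2545, 2881 and 5450 in sheep and 851, 893 and 1137 in goat. PSEN2, a catalytic subunit of gamma-secretase, had 32.0, 26.0 and 58.8 in sheep and 7.57, 9.81 and 10.1 in goat. APP, the amyloid precursor, has models of matched length and had 931, 739 and 414 in sheep and 1018, 930 and 1257 in goat, and it was not called (log2 -0.62 ± 0.38, adjusted p = 0.378). The 4 members of matched length had a median of -0.62 with 0 called.

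Metabolic and stress genes held further pairs, beside those described above, in which 1 model received almost no reads. PKM, the pyruvate kinase of brain and muscle, had 663, 718 and 778 CPM per kb in sheep and 0 counts in goat, where the paired model holds 365 bases of exon against 1949 in sheep. CRYAB, a small heat shock protein, had 139, 176 and 401 in sheep, 0.0764, 0.538 and 0.0759 in goat and 272 in cattle, with a goat model of 3363 bases against 1008. Both were named through the sheep gene only. Of 18 glycolysis genes 4 were higher in sheep and 1 higher in goat, beside 6.55% and 2.92% of all genes tested. Among the 9 of matched length 0 were called. LDHA, the lactate dehydrogenase of glycolytic tissue, had 61.9, 82.9 and 86.7 in sheep and 208, 194 and 268 in goat, with a sheep model 1.48 times as long. It kept its call in 1 of the 6 leave-outs, that of sheep C. Its muscle difference was 0.55, and the interaction was called (-2.23 ± 0.42, adjusted p = 0.0139 by edgeR). PRDX6, a peroxiredoxin of glutathione metabolism, had 217, 199 and 217 in sheep and 35, 40.6 and 42.2 in goat, with a sheep model 0.37 times as long. Of 19 proteasome genes 3 were higher in sheep, beside 6.55% of all genes tested. Their sheep models were 0.19 to 0.29 times as long, and 0 of the 10 proteasome genes of matched length were called. Without sheep C, 3 proteasome genes were higher in sheep and 1 higher in goat. In the interferon list 0 of 12 genes were called with all 6 libraries. Without sheep C 3 of them were higher in goat, beside 7.1% of all genes tested.

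The repeat without sheep C added genes to the strictest set, 32 higher in sheep and 61 higher in goat at 8 CPM per kb or more. APOD, an apolipoprotein of glia, had 325, 362 and 326 CPM per kb in sheep and 1614, 655 and 577 in goat, and its log2 difference without sheep C was -1.49 (adjusted p = 0.0447 by edgeR). NOP56, a core protein of nucleolar particles, had 11.7 and 13.2 in sheep A and B, 51.7 in sheep C and 36.8, 49.7 and 33.9 in goat, with -1.73 without sheep C (adjusted p = 0.00237). GRIK3, a kainate receptor subunit, had 5.19, 5.17 and 0.899 in sheep and 23.0, 6.42 and 15.7 in goat, with -1.56 (adjusted p = 0.0444). REEP5, a protein that shapes the endoplasmic reticulum, had 121, 117 and 24.6 in sheep and 63.9, 45.3 and 46.7 in goat, with 1.16 (adjusted p = 0.00565). CA5A, a mitochondrial carbonic anhydrase with near copies in both annotations, had 127, 103 and 1.16 in sheep and 3.60, 0.373 and 0.194 in goat. In NOP56, REEP5 and CA5A sheep C lay on the goat side of sheep A and B, in GRIK3 it lay below every other library, and in APOD it lay between A and B.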

How the data were processed

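Raw read counts per gene, deposited by the authors for each library on the gene models of its own species, were used with the exon length given in the same file. Trimmomatic 0.39, STAR 2.7.6 and featureCounts are named, per the submitters' processing notes, with ARS-UCD1.2 as the only build. The sources used here do not name the sheep and goat builds, the strand setting or the handling of reads with several placements. Groups come from the sample titles.

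Sheep and goat genes were paired, in place of an ortholog table, by at least 2 neighbouring exon lengths in common (9968 pairs, of which 9858 in conserved order were kept) and then by at least 1 shared exon length between paired neighbours, 5 on each side (7009 pairs). Of 9808 first-pass pairs that this step placed when they were hidden from it, 99.2% had the same partner. The hidden pairs had met the stricter step and the 7009 had not, so this share does not carry over to them. Among the 7009 were KCNJ13, ERFE, ABCB4, TUBA4A, TCEAL4 and TTR. Symbols come from the cattle RefSeq table, matched by overlap of positions (at least 0.5) and through cattle pairs, and 12400 pairs have one. Exon overlap was counted against other genes on either strand.

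Counts were fitted with edgeR 4.0.16 in R 4.3.3 (quasi-likelihood, robust, filterByExpr), with an offset of log exon length plus the trimmed-mean (TMM) library size from length-scaled counts. TMM factors were 0.794 in sheep C and 1.03 to 1.11 in the others. The fit was tested on simulated counts with a single dispersion and with counts proportional to exon length. No simulated library stood apart as sheep C did, so that test does not cover sheep C or unequal gene models. The interaction used the 12 libraries of sheep and goat. Alternatives were DESeq2 1.42.0, limma-voom (limma 3.58.1) and other scaling, filters and pair sets. A gene of 0 counts in a group has its fold against 3 counts over the group, which covers counting error only. The members and lists were chosen with earlier results of these data known. Named genes were, per direction, the 15 of largest difference that met the limits on length, level (8 CPM per kb), separation and the repeat without sheep C, up to 4 per list, 6 per direction of the interaction and 6 per direction for sheep C. List members named beyond this rule, the selection by exon overlap and cattle link, and genes called only without sheep C, were added after the values were seen. Cattle muscle was not analysed here, and no sequence is printed.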

Additional observations from a re-analysis of the deposited data

Results flagged for a closer look

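Genes of matched length called in brain were set aside here because the sheep over goat difference itself differed between brain and muscle, by the interaction test of edgeR over 12 libraries. The value is the log2 difference in brain minus that in muscle. On the positive side it was 5.18 for C1QTNF3 (adjusted p = 0.0139), 4.24 for CFAP251 (adjusted p = 0.00612), 4.20 for SPON2 (adjusted p = 0.00129), 4.18 for APOBEC2 (adjusted p = 0.000467), 3.90 for GFRA3 (adjusted p = 0.0314) and 3.57 for GPX8 (adjusted p = 0.00400). On the negative side it was -3.6 for FAM20A (adjusted p = 0.000836), -2.61 for ACOX2 (adjusted p = 0.0228) and -2.09 for CD83 (adjusted p = 0.0395). Without sheep brain C the adjusted p of these 9 genes lay between 0.000149 for APOBEC2 and 0.0286 for CD83. Their brain call, a condition of this selection, held in all 6 leave-outs of 1 library for APOBEC2 and ACOX2 only. It held in 3 of the 6 for C1QTNF3, SPON2, GFRA3 and GPX8, in 2 for CFAP251 and in 1 for FAM20A and CD83. C1QTNF3 rested on sheep A and B for its level, since sheep C had 1.08 CPM per kb. The muscle side was low for CFAP251, with means of 0.125 CPM per kb in sheep and 0.756 in goat. For GFRA3 these means were 0.675 and 0.813.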

How the results depend on the processing

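The counts are given in the order higher in sheep, higher in goat, then the same among genes of matched length. RLE scaling, library totals, both other filters, pairs of low exon overlap and the call without a fold limit moved none of them by over 1.5 times, while library totals shifted the median of all genes by -0.16. DESeq2 gave 1590, 718, 367 and 215, limma-voom with library weights 1694, 1070, 360 and 361, and the fit of 12 libraries 1628, 695, 372 and 202. First-pass pairs alone gave 181, 57, 43 and 25, pairs linked to cattle in both species, a setting chosen after seeing the data as was that of low exon overlap, 494, 165, 101 and 46, and pairs of matched length fitted alone 84 and 52. Without the length offset 476 were higher in sheep, and a length limit of 1.5 gave 151 higher in goat. Leaving out 1 library gave 239 to 1388, 178 to 950, 49 to 263 and 38 to 280. The interaction counts were 131 and 69 with first-pass pairs and 498 and 425 without sheep C. Deviations of same-letter libraries from the means of their species correlated at 0.24, -0.24 and 0.01 for A, B and C. With goat A the values were 0.24, 0.29 and -0.28 for sheep A, B and C. Sheep A and B thus deviated alike and sheep C the other way, so these values cannot show whether the letters pair libraries. With the letter as a replicate block the counts were 492, 236, 90 and 57, and 244 and 155 for the interaction. Of 120 named genes under 19 settings, 5 changed sign, all without the length offset, where IDI1 stood at -0.32, MRC1 at -1.03, PSMA1 at -0.55, PSMA5 at -0.094 and RGS16 at -0.49. In 616 cases the sign held and the call was lost, and in 1549 the call held. Of 797 values of list medians under these settings, 69 moved by more than the SD between libraries. The cause was not tested.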

Other observations

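Sheep brain C differed from sheep A and B by gene length. Among genes of at least 8 CPM per kb, the median log2 difference of C from the mean of A and B was 0.63 in the 2272 genes with the shortest sheep models (56 to 1047 bases) and 0.31, 0.08 and -0.27 in the next 3 groups of like size, the last of 2611 to 29991 bases. Among the shortest 856 genes were over 2-fold higher and 465 over 2-fold lower in C, and in the longest 454 and 776. Of the lists, the sodium and calcium channel genes had a median of -2.19 in C relative to A and B and the GABA receptor genes -1.86.

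Medians of the species difference by sheep chromosome are given for 3 chromosomes picked after their values were seen, with no test. Among genes of matched length, the median log2 difference was 0.38 on sheep chromosome 14 (360 genes), 0.28 on chromosome 24 (266 genes) and -0.41 on chromosome 23 (83 genes), beside -0.04 over all.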
